A study of Bos taurus with 6 samples.

Results

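The miRNAs described here are the 6 entries bta-miR-143, bta-miR-145, bta-miR-199a-3p, bta-miR-199a-5p, bta-miR-199b and bta-miR-214 of a deposited table of 1028 mature bovine miRNAs. They were chosen by name, as miRNAs of fibroblasts and smooth muscle, with 2 from the cluster of miR-143 and miR-145 and 4 from the clusters of miR-199 and miR-214. Of the 1028 entries, 341 were above 0 in at least 1 library and 251 averaged at least 10 TMM-adjusted CPM, counts scaled to library size, in at least 1 temperature group, and all 6 members were among those 251. The table describes small RNA from extracellular vesicles (EVs), membrane-bound particles shed by cells, which were collected from the culture medium of bovine oviductal organoids, spherical cultures grown from the epithelial lining of the oviduct.

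Organoids of 3 replicates (A, B and C) were exposed to heat stress at 42 °C over their final day, and organoids of 3 replicates (A, B and C) were kept at 37 °C, the thermoneutral temperature. Both groups had been grown from slaughterhouse oviducts at diestrus, and both had developed at the thermoneutral temperature before the treatment. Each replicate was a pool of a pair of animals, and both temperatures drew on the same animals' oviducts, but no library is tied to an animal. A filtering step in the cell preparation was meant to deplete stroma and immune cells. The p-values below therefore measure the spread between pools.

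miR-143 and miR-145 are cut from 1 shared precursor transcript and are among the miRNAs most typical of smooth muscle and fibroblasts. In mice, their presence in the gut traces to the mesenchymal layers and not to the epithelium. miR-199a and miR-214 are likewise typical of fibroblasts and other mesenchymal cells, and in humans and mice they are made from transcripts that run antisense to genes of the dynamin family. The oviduct wall surrounds its epithelium with stroma and smooth muscle, so both the epithelium and these layers are parts of the organ from which the cultures were started.

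RefSeq annotation of the assembly ARS-UCD2.0 supplied names and neighbours only. There, MIR143 and MIR145 were neighbouring entries inside the non-coding locus LOC132345768. MIR214, MIR3120 and MIR199A-1 were consecutive entries inside DNM3. MIR199A-2 lay inside DNM2 and MIR199B inside DNM1, both also dynamin genes. The miR-199a arms can thus come from both MIR199A hairpins. In humans the 3p arms of miR-199a and miR-199b have the same sequence, so reads of that sequence cannot be assigned to 1 hairpin. The other entry of these families, bta-miR-199c, whose gene MIR199C lay inside NUP88, had 0, 4 and 0 reads at 42 °C and 0, 3 and 1 read at 37 °C and was too low to be tested.

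Every deposited value was a whole multiple of the CPM value of 1 read in its library, so reads could be recovered. The libraries held 103809, 213877 and 72580 miRNA reads at 42 °C (A, B and C) and 31640, 150214 and 140055 at 37 °C. A single miRNA, bta-miR-1246, took 40.2%, 26.7% and 71.8% of these reads at 42 °C and 25.0%, 50.0% and 49.6% at 37 °C. Without it, 62066, 156686 and 20482 reads were left at 42 °C and 23732, 75120 and 70569 at 37 °C, so that 42 °C replicate C and 37 °C replicate A were the shallowest libraries. One read was worth 5.53 to 28.7 CPM at 42 °C and 5.87 to 17.0 CPM at 37 °C. A miRNA with no read could stand at up to 3 reads, which is 51.0 CPM in 37 °C replicate A, and these limits and the intervals below cover counting error only.

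miR-143 was the most abundant member at both temperatures and gave most of the members' reads. Its level was 3553, 4814 and 11516 CPM at 42 °C (447, 870 and 401 reads), against 5663, 1651 and 1943 CPM at 37 °C (333, 281 and 263 reads). The groups overlapped, because 37 °C replicate A stood above replicates A and B at 42 °C. The mean was 6628 ± 4280.2 CPM at 42 °C and 3086 ± 2237 CPM at 37 °C (SD, n = 3 each). Among all miRNAs ordered by mean level, miR-143 was number 18 at 42 °C and number 27 at 37 °C.

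The highest miR-143 level of each temperature was in that group's shallowest library. As a share of all miRNA reads, miR-143 took 0.431%, 0.407% and 0.552% at 42 °C, against 1.05%, 0.187% and 0.188% at 37 °C. The Wilson 95% intervals of these shares ran from 0.381% to 0.609% over the 42 °C libraries, and reached 1.17% in 37 °C replicate A. The share in 37 °C replicate A thus exceeded all the others beyond counting error, and shares in the other pair of 37 °C libraries lay below all 42 °C shares.

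miR-145, which is made from the same precursor transcript, was measured by few reads. Its level was 47.7, 44.3 and 86.2 CPM at 42 °C (6, 8 and 3 reads), against 102, 23.5 and 14.8 CPM at 37 °C (6, 4 and 2 reads). The groups overlapped, and 1 library at 37 °C, replicate A, held the highest value of all. The mean was 59.4 ± 23.3 CPM at 42 °C and 46.8 ± 48.1 CPM at 37 °C (SD, n = 3 each). At this depth the level in most libraries was within a few reads of the limit that a count of 0 allows.

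miR-199a-3p was the second member by abundance and the only one with a lower mean CPM at 42 °C. Its level was 334, 559 and 862 CPM at 42 °C (42, 101 and 30 reads), against 1378, 834 and 931 CPM at 37 °C (81, 142 and 126 reads). The groups met only where 42 °C replicate C (862 CPM) stood above 37 °C replicate B (834 CPM). The mean was 585 ± 265 CPM at 42 °C and 1048 ± 290 CPM at 37 °C (SD, n = 3 each).

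Set against miRNA reads other than bta-miR-1246, miR-199a-3p had 677, 645 and 1465 reads per 1000000 at 42 °C, against 3413, 1890 and 1785 at 37 °C. On this scale the groups did not overlap, and each 42 °C library lay below each 37 °C library. The same pattern was seen in 50 of the 251 miRNAs tested (19.9%), so it was common on this scale. miR-145 also had a lower mean at 42 °C on this scale, though its groups overlapped. Its means were 98.1 ± 47.7 at 42 °C and 111 ± 123 at 37 °C (SD, n = 3 each).

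miR-199a-5p comes from the other arm of the same hairpins. Its level was 103, 448 and 632 CPM at 42 °C (13, 81 and 22 reads), against 204, 117 and 111 CPM at 37 °C (12, 20 and 15 reads). Replicates B and C at 42 °C stood above every 37 °C library, while replicate A at 42 °C stood below all of them. The mean was 394 ± 268 CPM at 42 °C and 144 ± 52.0 CPM at 37 °C (SD, n = 3 each).

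miR-199b and miR-214 were close to the detection limit in every library. miR-199b was at 15.9, 49.8 and 57.4 CPM at 42 °C (2, 9 and 2 reads), against 0, 29.4 and 7.39 CPM at 37 °C (0, 5 and 1 read). miR-214, which shares a host gene with MIR199A-1, was at 39.7, 11.1 and 57.4 CPM at 42 °C (5, 2 and 2 reads), against 0, 23.5 and 14.8 CPM at 37 °C (0, 4 and 2 reads). Both were without a read only in 37 °C replicate A, the library with the fewest miRNA reads, and for both the groups overlapped.

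**Figure D1:**
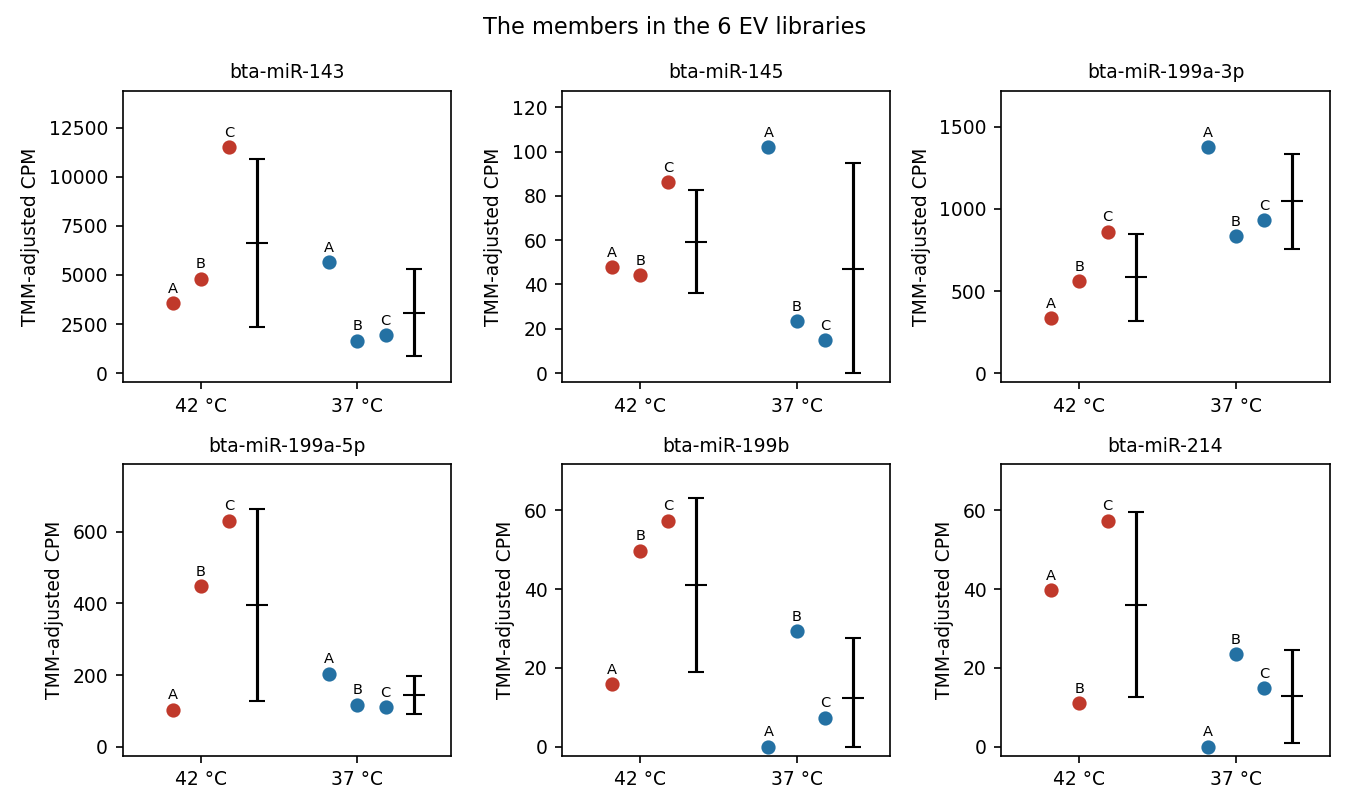
Deposited TMM-adjusted CPM (y axis, a separate linear scale for each miRNA) of the 6 members in the 3 libraries at 42 °C (red, left) and the 3 at 37 °C (blue, right); letters name the replicates, and black marks give the mean with 1 SD on each side, stopped at 0 where it would pass below. For every member at least 1 library of one temperature lies within the range of the other, as with miR-199a-3p, where 862 CPM in 42 °C replicate C stands above 834 CPM in 37 °C replicate B.

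None of the 6 members was called different between 42 °C and 37 °C. A call by limma needed an adjusted p under 0.05, Benjamini-Hochberg over all 251 miRNAs, and a change of at least 2-fold, and 6 of the 251 miRNAs (2.39%) were called. At an unadjusted p under 0.05 the count was 0 of 6 members, against 44 of the 251 miRNAs (17.5%). edgeR's quasi-likelihood test and DESeq2 on the recovered reads called 0 members as well, against 11 (4.38%) and 17 (6.77%) of the 251 miRNAs. Their counts at an unadjusted p under 0.05 were 1 member (miR-199a-5p) and 0 members, against 42 and 36 of the 251 miRNAs. In bulk EV samples, fewer vesicles from a cell type and less of a miRNA per vesicle cannot be told apart.

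The fold changes were estimated on log2(CPM + 10), a scale that compresses the differences of low miRNAs. The log2 fold change of miR-143 at 42 °C over 37 °C was 1.14 (SE 0.56, 95% interval -0.06 to 2.35), with an adjusted p = 0.32 by limma. That of miR-199a-3p was -0.90 (SE 0.47, interval -1.91 to 0.12), with an adjusted p = 0.35 by limma. Both intervals reached just past 0, and they allowed a change of more than 2-fold as well as none.

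For miR-199a-5p the log2 fold change was 1.11 (SE 0.69, interval -0.38 to 2.60, limma adjusted p = 0.46). The 3 low members had wider intervals, from -1.21 to 2.34 for miR-145 around 0.56, from -0.48 to 3.10 for miR-199b around 1.31, and from -0.76 to 2.82 for miR-214 around 1.03. Their limma adjusted p-values were 0.75, 0.47 and 0.59. The interval of miR-145 included large changes in both directions, so the fit could not show whether miR-145 differed.

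Of the 6 values, 5 were above 0 and 1 was below, with a median of 1.07, beside a median of -0.01 over all 251 miRNAs. The members were not independent of each other, since several share hairpins, transcripts and libraries. In 0 of 6 members did the CPM of the groups separate completely, against 61 of 251 miRNAs (24.3%). The size of these values depended on the scaling of the libraries. When each library was brought to a sum of 1000000, the median of all miRNAs moved by -0.55, the value of miR-143 became 0.46, that of miR-199a-3p became -1.57 and that of miR-145 became -0.04.

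**Figure D2:**
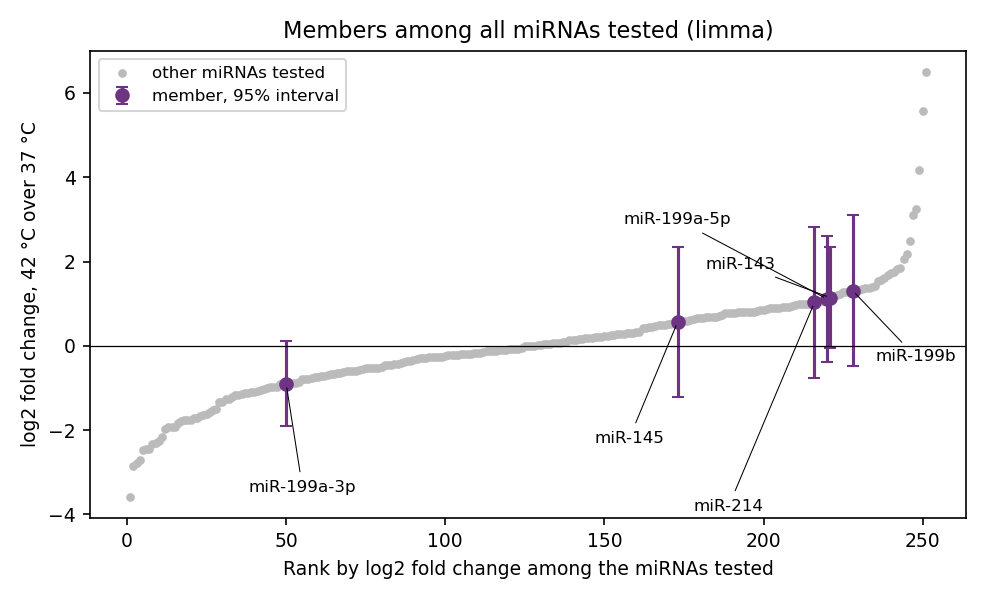
The log2 fold change of all 251 miRNAs tested, 42 °C over 37 °C (y axis), in order of its size (x axis, rank), with the 6 members in purple and their 95% intervals from limma. The intervals of all 6 members cross the line at 0, and 5 members lie above it while miR-199a-3p lies below at -0.90.

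Ratios between members within a library do not depend on how that library is scaled. The ratio of the arms of miR-199a did not overlap between the temperatures. The 5p arm gave 23.6%, 44.5% and 42.3% of the miR-199a reads at 42 °C (13 of 55, 81 of 182 and 22 of 52 reads), against 12.9%, 12.3% and 10.6% at 37 °C (12 of 93, 20 of 162 and 15 of 141 reads). Each 42 °C library lay above each 37 °C library.

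The mean share of the 5p arm was 36.8% ± 11.5 at 42 °C and 12.0% ± 1.18 at 37 °C (SD, n = 3 each). The exact 95% intervals were 37.2 to 52.0% and 28.7 to 56.8% in replicates B and C at 42 °C, and the highest bound at 37 °C was 21.5%. In replicate A at 42 °C the interval of 13.2 to 37.0% overlapped those of all 37 °C libraries, so that 2 of the 3 libraries at 42 °C stood clear of the 37 °C libraries beyond counting error. On the log2 scale the 5p to 3p ratio averaged -0.80 ± 0.74 at 42 °C and -2.84 ± 0.17 at 37 °C, a difference of 2.04, or 4.11-fold.

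An exact two-sided permutation test of this difference gave p = 0.1, the smallest value that 3 libraries against 3 can give, and 0.2 after adjustment over the 4 ratios compared. This test can therefore not take the difference past a threshold of 0.05 with 3 libraries against 3. The difference stayed between 1.80 and 2.47 when any 1 library was left out. With the reads of miR-199b counted with the 5p arm, an alternative added after seeing the data, it was 2.06.

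Of 11 miRNA hairpins with entries for both arms, 2 had ratios that did not overlap between the temperatures (18.2%). The other was bta-miR-22, whose 5p to 3p ratio was lower at 42 °C by a log2 difference of -3.50. Only the arms of miR-199a and miR-423 had at least 10 reads each in every library, and the ratios of miR-423 overlapped, with a log2 difference of 1.02. The arm ratio of miR-199a is also a ratio to miR-199a-3p. Such ratios were higher in every 42 °C than in every 37 °C library for 27 of 83 miRNAs (32.5%). These 83 had at least 10 reads in every library, and the 27 include miR-199a-5p.

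**Figure D3:**
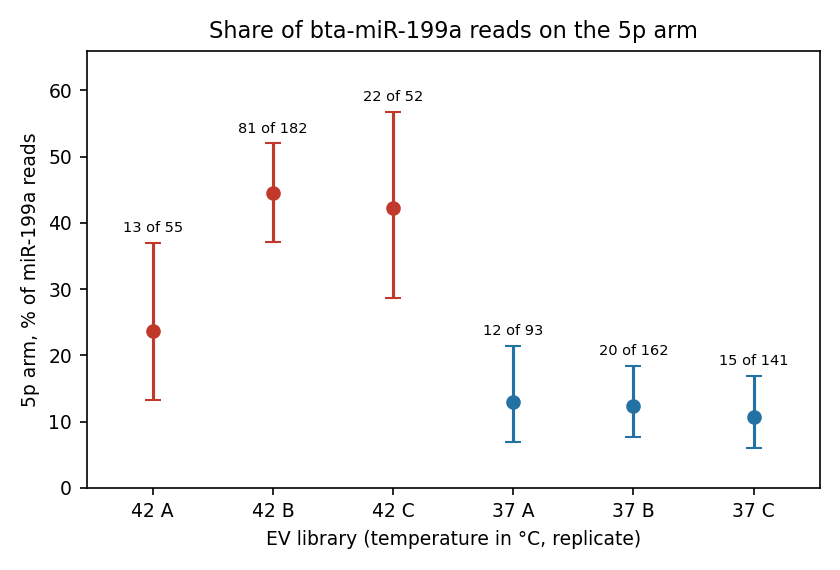
Share of miR-199a reads that came from the 5p arm (y axis, percent) in each library at 42 °C (red) and 37 °C (blue); bars are exact 95% intervals for counting error, and the reads are printed above them. The 3 libraries at 42 °C lie at 23.6 to 44.5% and the 3 at 37 °C at 10.6 to 12.9%.

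miR-143 exceeded miR-199a-3p by more at 42 °C than at 37 °C. There were 10.6, 8.61 and 13.4 reads of miR-143 for each read of miR-199a-3p at 42 °C, against 4.11, 1.98 and 2.09 at 37 °C. The groups did not overlap. The log2 ratio averaged 3.41 ± 0.31 at 42 °C and 1.36 ± 0.59 at 37 °C (SD, n = 3 each), a difference of 2.05, or 4.13-fold, with an exact permutation p = 0.1 and 0.2 after adjustment.

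This ratio was picked after its values had been seen. Of the other 83 miRNAs with at least 10 reads in every library, 27 had a ratio to miR-199a-3p that was higher in every 42 °C library (32.5%), and 1 had a lower one. miR-143 and miR-199a-5p were both among those 27, so a separation of this kind was common for ratios to miR-199a-3p.

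Of the 4 ratios compared, that of miR-143 to miR-145 was the largest in every library. miR-143 had 74.5, 109 and 134 reads for each read of miR-145 at 42 °C, against 55.5, 70.3 and 132 at 37 °C. The groups overlapped, and the log2 ratio averaged 6.54 ± 0.39 at 42 °C and 6.12 ± 0.54 at 37 °C (SD, n = 3 each), with an exact permutation p = 0.3 for the difference of 0.42. miR-145 had only 2 to 8 reads per library. With 3 libraries against 3 this test cannot give a p under 0.1, so it could not call a shift of any size within the cluster.

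The ratio of miR-143 to miR-199a-5p, also added after the values had been seen, was 34.4, 10.7 and 18.2 at 42 °C, against 27.8, 14.1 and 17.5 at 37 °C. Its log2 mean was 4.21 ± 0.82 at 42 °C and 4.20 ± 0.49 at 37 °C (SD, n = 3 each), a difference of 0.01 with an exact permutation p = 1. The spread within each group was far wider than the difference between them, and leaving out 1 library moved it between -0.41 and 0.40.

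**Figure D4:**
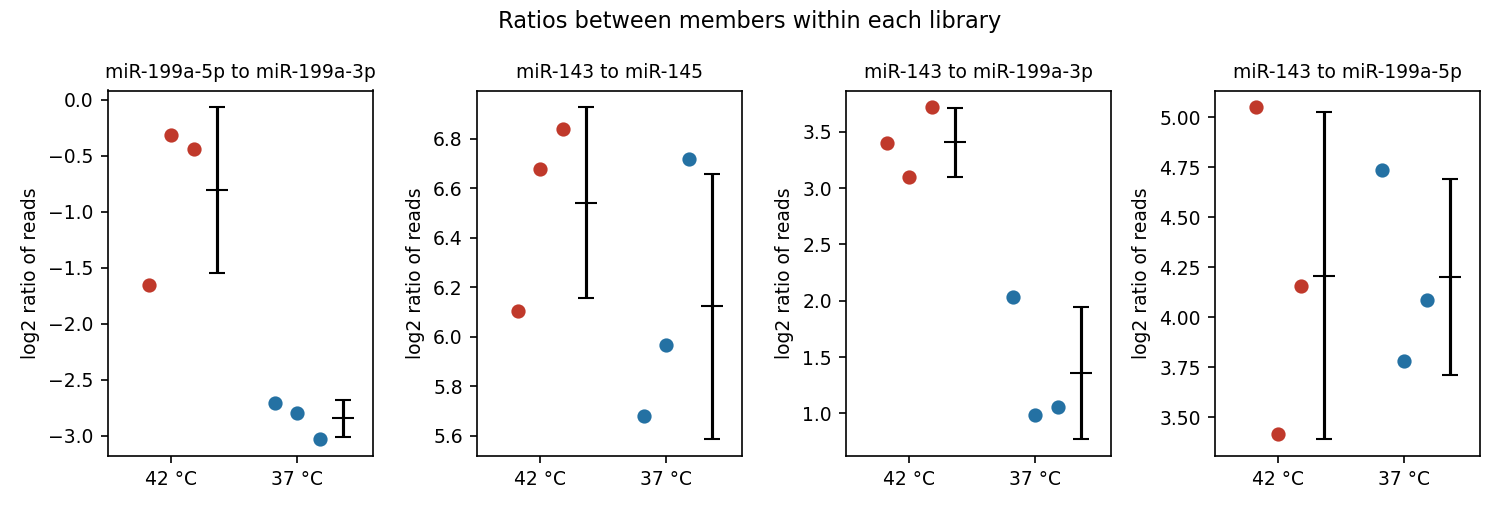
The log2 ratio of reads between pairs of members (y axis, a separate scale for each pair) in the libraries at 42 °C (red, left) and 37 °C (blue, right), in the order A, B, C, with the mean and 1 SD in black. The ratios of miR-199a-5p and of miR-143 to miR-199a-3p separate the temperatures with mean differences of 2.04 and 2.05, and the ratios of miR-143 to miR-145 and to miR-199a-5p overlap.

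Together the members took 515, 1071 and 460 reads at 42 °C, against 432, 456 and 409 at 37 °C. Per 1000000 miRNA reads other than bta-miR-1246 this came to 8298, 6835 and 22459 at 42 °C, against 18203, 6070 and 5796 at 37 °C. The 2 highest values were those of the shallowest libraries, 1 at each temperature, and the mean was 12531 ± 8629 at 42 °C and 10023 ± 7086 at 37 °C (SD, n = 3 each). The difference of 2507 was smaller than either SD, and it became -2457 without 42 °C replicate C and 6598 without 37 °C replicate A.

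The make-up of the members' reads was steadier than their sum. miR-143 gave 86.8%, 81.2% and 87.2% of them at 42 °C, against 77.1%, 61.6% and 64.3% at 37 °C. The mean share was 85.1% ± 3.33 at 42 °C and 67.7% ± 8.26 at 37 °C (SD, n = 3 each), without overlap. This share follows from the same reads of miR-143 and miR-199a-3p as their ratio above and adds no separate measurement.

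**Figure D5:**
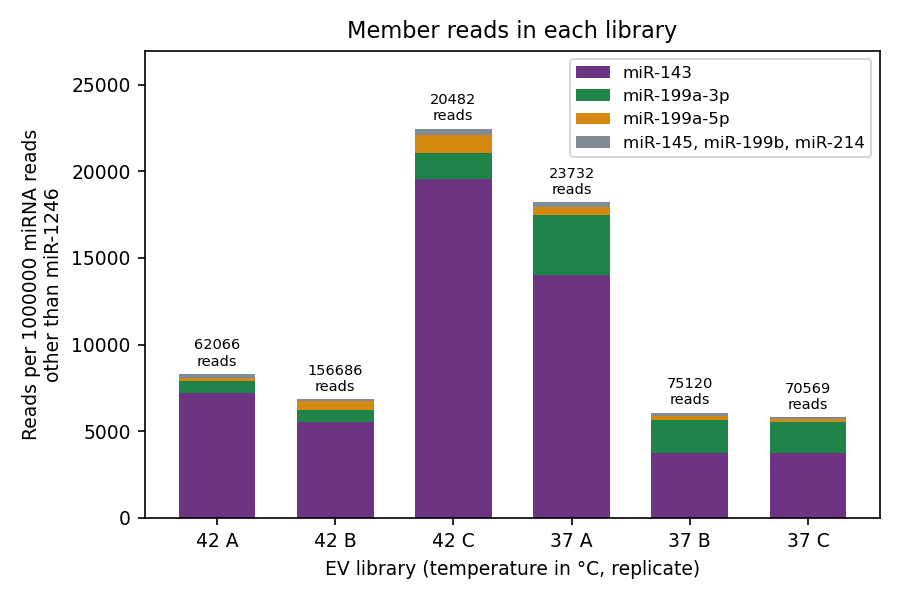
Reads of the members per 1000000 miRNA reads other than miR-1246 (y axis, stacked bars from 0) in each library (x axis), with the miRNA reads other than miR-1246 printed above each bar. The tallest bars, 22459 in 42 °C replicate C and 18203 in 37 °C replicate A, belong to the libraries with 20482 and 23732 such reads.

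The order of the members by mean CPM was nearly the same at both temperatures. This is an order of reads, and whether different miRNAs yield reads equally well in these libraries was not measured. At 42 °C the order ran miR-143, miR-199a-3p, miR-199a-5p, miR-145, miR-199b and miR-214, and at 37 °C miR-214 came before miR-199b. miR-143 stood above miR-199a-3p in every library, by 11.3-fold of the means at 42 °C and 2.95-fold at 37 °C.

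The step between the arms of miR-199a was 1.48-fold of the means at 42 °C, where their ranges over libraries overlapped, and 7.27-fold at 37 °C, where they did not. miR-199a-5p stood above miR-145 without overlap at both temperatures, by 6.64-fold at 42 °C and 3.08-fold at 37 °C. The levels of miR-145, miR-199b and miR-214 overlapped each other at both temperatures, so their order is not resolved.

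The 3 members miR-143, miR-199a-3p and miR-199a-5p had at least 10 reads in every library, and their profiles were compared with those of all other tested miRNAs by the root mean square (RMS) difference of centred log2(CPM + 10) over the 6 libraries. The rule for the partners set no minimum of reads, and several of them were near the detection limit. The profiles with the smallest difference from miR-143 were those of bta-miR-19b (RMS difference 0.42, with 1 to 13 reads in a library), bta-miR-16b (0.49, 6 to 24 reads) and bta-miR-219-3p (0.50, 1 to 4 reads), beside a median of 1.29 over all the others. One read was worth most in 42 °C replicate C and 37 °C replicate A, and the part of this in these CPM profiles was not tested. With so few reads, no likeness to miR-143 is read from bta-miR-219-3p or bta-miR-19b.

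For miR-199a-3p the smallest differences were those of bta-miR-7 (0.29, 89 to 553 reads), bta-miR-1307 (0.39, 19 to 117 reads) and bta-miR-93 (0.40, 7 to 45 reads), beside a median of 1.02. For miR-199a-5p they were those of bta-miR-193b (0.41, 0 to 5 reads), bta-miR-302c (0.50, 0 or 1 read) and bta-miR-146a (0.51, 30 to 251 reads), beside a median of 1.30. No likeness to miR-199a-5p is read from bta-miR-193b or bta-miR-302c at this depth.

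A list of 26 further miRNAs known from fibroblasts, smooth muscle and other mesenchymal cells gave 21 that could be tested. None was called higher and none lower by limma at 42 °C, with 3 higher and 2 lower at an unadjusted p under 0.05 (beside 44 of all 251), and their median log2 fold change was -0.20, beside -0.01 over all 251 miRNAs. The lowest adjusted p by limma was 0.051, for bta-miR-22-3p, with a log2 fold change of 1.83. Of the list, edgeR called 1 higher (bta-miR-22-3p) of its 11 calls over all miRNAs, and DESeq2, with 17 calls over all miRNAs, called 3 higher (bta-miR-99a-5p, bta-miR-10b and bta-miR-22-3p) and 1 lower (bta-miR-221). The tools thus differed in their calls over all miRNAs as well as over the list. With its own model, the study reported the same miRNAs of the list as DESeq2 here, in the same directions.

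By the mean over both temperatures, the 4 most abundant miRNAs of the list were bta-miR-21-5p, bta-miR-10b, bta-miR-99a-5p and bta-miR-100, which many cell types besides mesenchymal ones express. bta-miR-21-5p averaged 66565 ± 24884 CPM at 42 °C and 43902 ± 16195 CPM at 37 °C, and bta-miR-10b averaged 12289 ± 5234 CPM at 42 °C and 4667 ± 317 CPM at 37 °C (SD, n = 3 each). bta-miR-99a-5p averaged 10291 ± 1247 CPM at 42 °C and 3868 ± 437 CPM at 37 °C, and bta-miR-100 averaged 5687 ± 3250 CPM at 42 °C and 5124 ± 994 CPM at 37 °C (SD, n = 3 each). bta-miR-490, a smooth muscle miRNA, had no read in any library.

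Of 11 epithelial miRNAs listed, 10 were in the table and all 10 were tested. None of the 10 was called by limma, edgeR or DESeq2, against 6 (2.39%), 11 (4.38%) and 17 (6.77%) of the 251 miRNAs. At an unadjusted p under 0.05 by limma the count was 0 of 10, against 44 of 251 (17.5%). With so few miRNAs, these counts do not show that the list was unchanged. No library of known make-up was compared, so the levels below cannot check the label of an epithelial culture. The list, which includes the miR-200 family that keeps cells epithelial, ran from 17679 to 59646 reads per 1000000 miRNA reads other than bta-miR-1246 at 42 °C and from 33343 to 49601 at 37 °C, with means of 34303 ± 22301 at 42 °C and 39376 ± 8902 at 37 °C (SD, n = 3 each). Its most abundant miRNAs were bta-miR-200b, at 9132 ± 2738 CPM at 42 °C and 8044 ± 2133 CPM at 37 °C, and bta-miR-200c, at 5377 ± 3898 CPM at 42 °C and 5619 ± 1321 CPM at 37 °C (SD, n = 3 each). For each 100 reads of the epithelial list there were 13.9, 38.7 and 87.8 reads of the members at 42 °C, against 51.7, 12.2 and 17.4 at 37 °C. The groups overlapped, and the largest values were again in the shallowest libraries.

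Lists of other cell types were summed per 1000000 miRNA reads other than bta-miR-1246. The 2 endothelial miRNAs ran from 2546 to 9229 at 42 °C and from 6536 to 11251 at 37 °C, and the 6 miRNAs of striated muscle from 2138 to 8837 at 42 °C and from 3118 to 3714 at 37 °C, with bta-miR-133b and bta-miR-208a at 0 in all libraries. The 7 leukocyte miRNAs ran from 8412 to 24168 at 42 °C and from 5201 to 5857 at 37 °C, without overlap. Of single miRNAs, 61 of 251 (24.3%) had CPM that did not overlap, in either direction. Of the 6 leukocyte miRNAs tested, limma called 1 higher (bta-miR-150), and edgeR and DESeq2 each called 2 higher (bta-miR-150 and bta-miR-223). Over all 251 miRNAs, limma called 6 (2.39%), edgeR 11 (4.38%) and DESeq2 17 (6.77%). The 3 erythroid miRNAs ran from 31241 to 201058 at 42 °C and from 34468 to 91216 at 37 °C, the liver miRNA bta-miR-122 from 18094 to 111446 at 42 °C and from 35423 to 48704 at 37 °C, and the 5 miRNAs of multiciliated cells from 102 to 342 at 42 °C and from 253 to 652 at 37 °C, with bta-miR-449b and bta-miR-449c at 0 in all libraries. The part of these cell types, or of the depth of the shallowest libraries, in the members' levels was not tested, and an EV library does not show from which cell a miRNA came.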

How the data were processed

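EV small RNA was isolated from conditioned organoid medium, and the authors trimmed the reads and annotated them against bovine miRBase entries in CLC Genomics Workbench. The deposited values are a signal that the authors call TMM-adjusted CPM (read counts scaled to library size and by trimmed means of M-values), so the columns do not sum to 1000000. The submitters' processing notes also name bcl2fastq, Bowtie2 2.2.2 and DESeq2 and the build ARS-UCD1.2, without roles. No column belonged to another sample.

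Dividing each deposited value by its library's smallest positive value gave whole numbers (to 0.01) for 100% of values, and these were used as reads; the 31640 to 213877 reads per library set the precision. The values were log2-transformed after adding 10 CPM and fitted with limma 3.58.1 (R 4.3.3) with an intensity trend and no block. A miRNA entered the fit if either group averaged 10 CPM or more, and p-values were adjusted by Benjamini-Hochberg. The thresholds follow the study, and its negative binomial model was replaced because the values are not counts. As alternatives, the recovered reads were fitted with edgeR 4.0.16 and with DESeq2 1.42.0, which called 11 and 17 of the 251 miRNAs. The limma procedure was tested on simulated data, and no result here rests on that test. Ratios were compared on log2 reads with 0.5 read added, by exact two-sided permutation tests.

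The members, lists and tests were chosen with earlier results of these data known. The miRNAs named were the members, their paralogs in the table, the 3 most similar profiles for each member with at least 10 reads in every library, and the 4 most abundant miRNAs of the mesenchymal list. Other miRNAs named beside a count were chosen after their values were seen, as were the ratios of miR-143 to both arms of miR-199a. The rule also named miRNAs with a shared seed, which were not looked up because miRNA sequences were not used here. Libraries were compared unpaired because the study used no block and no library is tied to an animal. Library letters were also checked as pairs. Deviations from the group means of same-letter libraries correlated at -0.06, 0.03 and -0.06 over 251 miRNAs (A, B and C). Those of different letters correlated at -0.11 to 0.16. With 3 libraries in each group, this check cannot decide whether the letters mark pairs. Alternatives covered scaling, pseudocount, filter, block, variance model, weights, test and each library left out, and leaving out both shallowest libraries and counting miR-199b with the 5p arm were added after seeing the data. The mRNA sequencing, RT-qPCR and target analyses were not analysed here.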

Additional observations from a re-analysis of the deposited data

How the results depend on the processing

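No member was called under any of the 18 alternatives, in which the lowest adjusted p of a member ranged from 0.072 to 0.48. The number of calls over all miRNAs was 6 and moved to 20 with each library at a sum of 1000000, 15 with bta-miR-1246 left out of that sum, 10 with a minimum mean of 50 CPM (where miR-199b and miR-214 dropped out), 10 without the intensity trend, 11 with array weights, 11 with edgeR and 17 with DESeq2. Leaving out 1 library gave 1 to 9 calls, with 1 when 37 °C replicate B was left out, and leaving out both shallowest libraries gave 3. The replicate block gave 15 calls and called no member, and it changed no other call of a member or ratio.

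The value of miR-145 turned to -0.035 with each library at a sum of 1000000. The difference in the ratio of miR-143 to miR-199a-5p ranged from -0.41 to 0.40 when 1 library was left out. The other members kept their direction, from 0.46 to 1.69 for miR-143, -1.57 to -0.55 for miR-199a-3p, 0.44 to 1.87 for miR-199a-5p, 0.54 to 2.54 for miR-199b and 0.17 to 2.07 for miR-214. So did the ratios of miR-143 to miR-199a-3p (1.86 to 2.38) and to miR-145 (0.05 to 0.72). The summed members differed by -1101 with bta-miR-1246 kept in the total and by -1104 without miR-143. The cause of these shifts was not tested. Depth limits miR-145, miR-199b and miR-214, which had at most 9 reads in a library.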
